A study of Mus musculus with 4 samples.

Results

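The genes of the mitochondrial respiratory chain were followed in GFP+ LSK cells (lineage-negative, Kit+, Sca-1+), the bone marrow fraction that holds mouse blood stem cells and their early progeny. The cells were sorted 3 months after LT-HSCs, the long-term stem cells, had been transplanted. Those stem cells bore a scrambled control sequence (Scr group) or were labelled as having the microRNA miR-99 knocked down (miR-99 KD group), which cannot be checked here because these libraries do not measure the mature microRNA. Lines of totals below the deposited counts number the libraries differently from GEO's titles, and the titles were used. There were 2 mice per group with 1 RNA-seq library each, and both groups share the transplantation, the GFP mark and the sort, and the labels give neither the age nor the strain of the mice. Members were the protein-coding genes whose symbols name subunits of complexes I to V, cytochrome c or complex I assembly factors, with the protein-coding genes of the mitochondrial genome added. Of 108 such genes, 99 had at least 10 counts over the 4 libraries and were kept, out of 45232 gene rows in all. They comprised 91 nuclear and 8 mitochondrial genome genes. Among the nuclear ones were 80 subunit genes (36 of complex I, 4 of complex II, 9 of complex III, 15 of complex IV and 16 of complex V), 8 complex I assembly factors, and Cycs, Cox7a2l and Atp5s. The rule also took 11 pseudogenes, which were left out.

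Complexes I and II pass electrons from NADH and succinate to coenzyme Q, complex III passes them on to cytochrome c, and complex IV hands them to oxygen. Complexes I, III and IV pump protons across the inner membrane, and complex V, the ATP synthase, uses their return to make ATP. Most subunits are encoded in the nucleus and imported, while a few core subunits of complexes I, III, IV and V are encoded by mitochondrial DNA, and complex II is wholly nuclear. Blood stem cells at rest are known for leaning on glycolysis, and their dividing progeny for using more respiration.

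The 4 nuclear and 5 mitochondrial genome genes that were dropped divide by kind. The nuclear ones were Cox7b2, Cox8b, Cox8c and Ndufa4l2, isoforms known from testis, muscle or low oxygen, with 0 to 4 counts each over all libraries. The mitochondrial ones were mt-Co2, mt-Co3, mt-Atp6, mt-Atp8 and mt-Nd4l, which had 0 counts in every library except for 1 count of mt-Co3 in miR-99 KD 1 and 1 count of mt-Atp6 in miR-99 KD 2. A count of 0 allows up to 3 counts, for counting error and uniquely assigned reads only. In these libraries that is 0.0927 to 0.110 CPM (counts scaled to a library of 1000000). That range uses plain gene totals, while other CPM values use TMM-scaled library sizes. HTSeq, the counter named in the submitters' processing notes, sets aside a read that aligns in several places. For 4 of these genes almost every stretch of 50 bases also occurs in an annotated gene elsewhere in the genome, namely all stretches of mt-Co2, 99.9% in mt-Co3, 99.5% in mt-Atp6 and 98.8% in mt-Nd4l. The copies lie together on chromosome 1 of GRCm38, a later build than the authors' mm9, on the minus strand. Gm28661 matches mt-Co2 over 681 bases at chr1:24614885-24615565 with 0 mismatches, and Gm10925 matches mt-Atp6 over 678 bases at chr1:24613974-24614651 with 0 mismatches. Gm28438 matches mt-Nd3 over 345 bases at chr1:24612775-24613119 with 1 mismatch, T3C, counted from the first base of mt-Nd3 (chrM:9459-9806, plus strand) and set in capitals here. The first 60 bases of mt-Nd3, and bases 71 to 130 of mt-Co2 and mt-Atp6, are shown with the same stretch of each copy because they show how little tells gene and copy apart.
mt-Co2: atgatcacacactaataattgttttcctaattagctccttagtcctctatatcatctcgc
Gm28661: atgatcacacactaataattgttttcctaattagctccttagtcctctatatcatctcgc
mt-Atp6: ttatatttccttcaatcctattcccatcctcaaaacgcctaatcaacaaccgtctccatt
Gm10925: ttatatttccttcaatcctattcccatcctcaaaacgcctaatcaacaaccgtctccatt
mt-Nd3: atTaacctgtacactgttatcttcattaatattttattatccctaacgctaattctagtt
Gm28438: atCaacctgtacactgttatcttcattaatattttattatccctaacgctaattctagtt

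The plot of mitochondrial gene counts sets this overlap beside the counts. mt-Nd3, with 98.0% of its stretches shared, had 118 counts or fewer in each library. mt-Nd4 and mt-Co1 share 62.2% and 51.1% and still had many counts, and mt-Nd1, mt-Cytb and mt-Nd6 share none. mt-Atp8 had 0 counts with 0.00% of its stretches shared, but only annotated transcripts were searched. It lies between mt-Co2 and mt-Atp6, whose copies lie on chromosome 1 at the same spacing, and the sequence between those copies was not searched. Of its 204 bases, 43 also belong to mt-Atp6. The levels of mt-Nd3, mt-Nd4 and mt-Co1 are therefore uncertain.

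**Figure D1:**
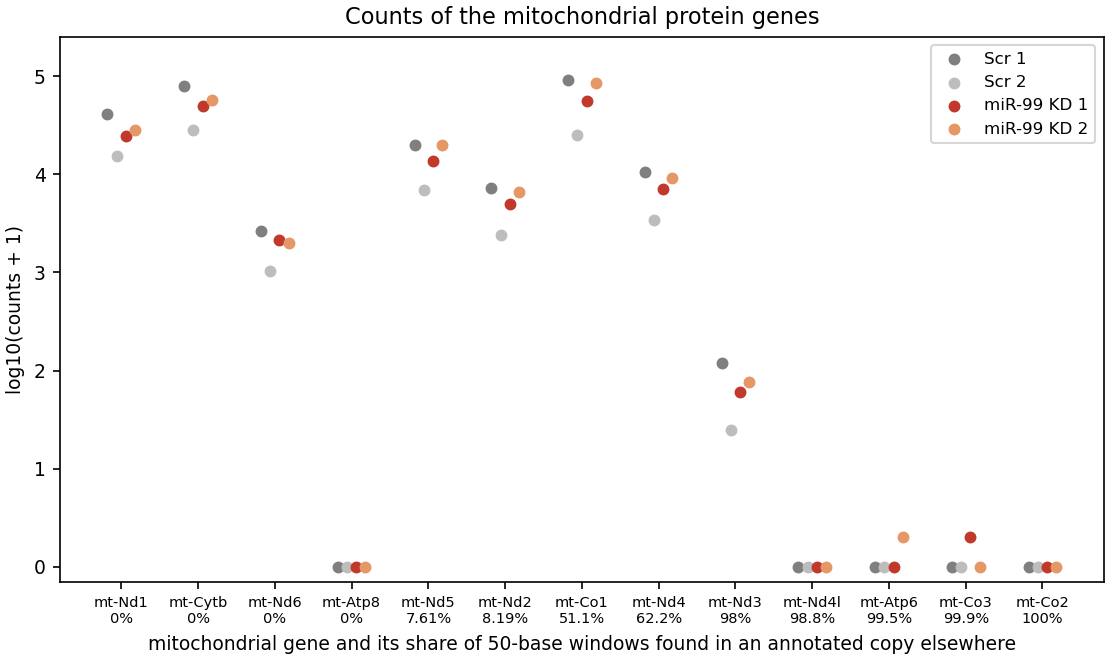
Counts of the 13 protein-coding mitochondrial genes in each library as log10(counts + 1), ordered by the percentage of 50-base stretches found in an annotated gene elsewhere. The 4 genes at 98.8% or more sit at 0 or 1 count, as does mt-Atp8 at 0%, while the genes at 0% to 62.2% other than mt-Atp8 hold the counts.

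Gene counts per library ran from 27295197 to 32350590. Kit, which the sort selects, was at 1148 and 1279 CPM in Scr against 670 and 773 in miR-99 KD, and Ly6a, which encodes Sca-1, had 46.5, 22.8, 12.3 and 22.2 CPM in the order Scr 1, Scr 2, miR-99 KD 1 and miR-99 KD 2. That order is kept for all lists of 4 values below. Summed CPM of 15 stem cell markers was 2845 and 2734 in Scr against 1349 and 1559 in miR-99 KD, and that of 14 erythroid markers was 10377 and 9763 against 14932 and 16513. Neutrophil markers summed to 8406, 6284, 29424 and 5305 CPM, and B cell markers to 91.5, 42.1, 324 and 96.0, so both were highest in miR-99 KD 1 although the gate removes lineage-positive cells. Macrophage markers summed to 527, 209, 548 and 373 CPM. Mitosis genes summed to 2875, 2904, 3504 and 3642 CPM. In bulk RNA, more cells of a type and more RNA per cell cannot be told apart. The part of these shifts in the values below was not tested.

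The edgeR quasi-likelihood test, adjusted by Benjamini-Hochberg over 15320 genes, called 0 of 97 members tested higher and 0 lower in miR-99 KD at 0.05, beside 0.0% of all genes higher and 0.0% lower. At an unadjusted p under 0.05 it found 6 members higher (Ndufaf4, Uqcrfs1, Ndufb10, Atp5g1, Ndufa10 and Ndufs7), beside 5.97% of all genes, and 1 lower (Sdha), beside 9.63%. DESeq2 called 1 member higher, Ndufaf4, beside 1.68% of all genes, and 0 lower, beside 4.16%. limma-voom called 0 members. All differences below are log2 of miR-99 KD over Scr from edgeR with 2 libraries per group, and no single member passed the main test.

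The nuclear subunit genes lay mostly on one side. Of 78 tested, 51 had both miR-99 KD libraries above both Scr libraries, 1 (Sdha) had both below, and 26 overlapped, beside 24.5% of all genes above and 26.0% below. The difference was positive for 76 of 78, all but Sdha and Ndufa8, beside 51.4% of all genes. The median difference was 0.27, with a range of -0.55 to 0.58, against 0.02 over all genes tested. With library totals in place of TMM scaling, which moved the median of all genes to -0.07, the count above was 29 of 78, beside 18.1% of all genes, and 1 was below, beside 31.9%. The median difference was then 0.18, and 68 of 78 were positive.

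**Figure D2:**
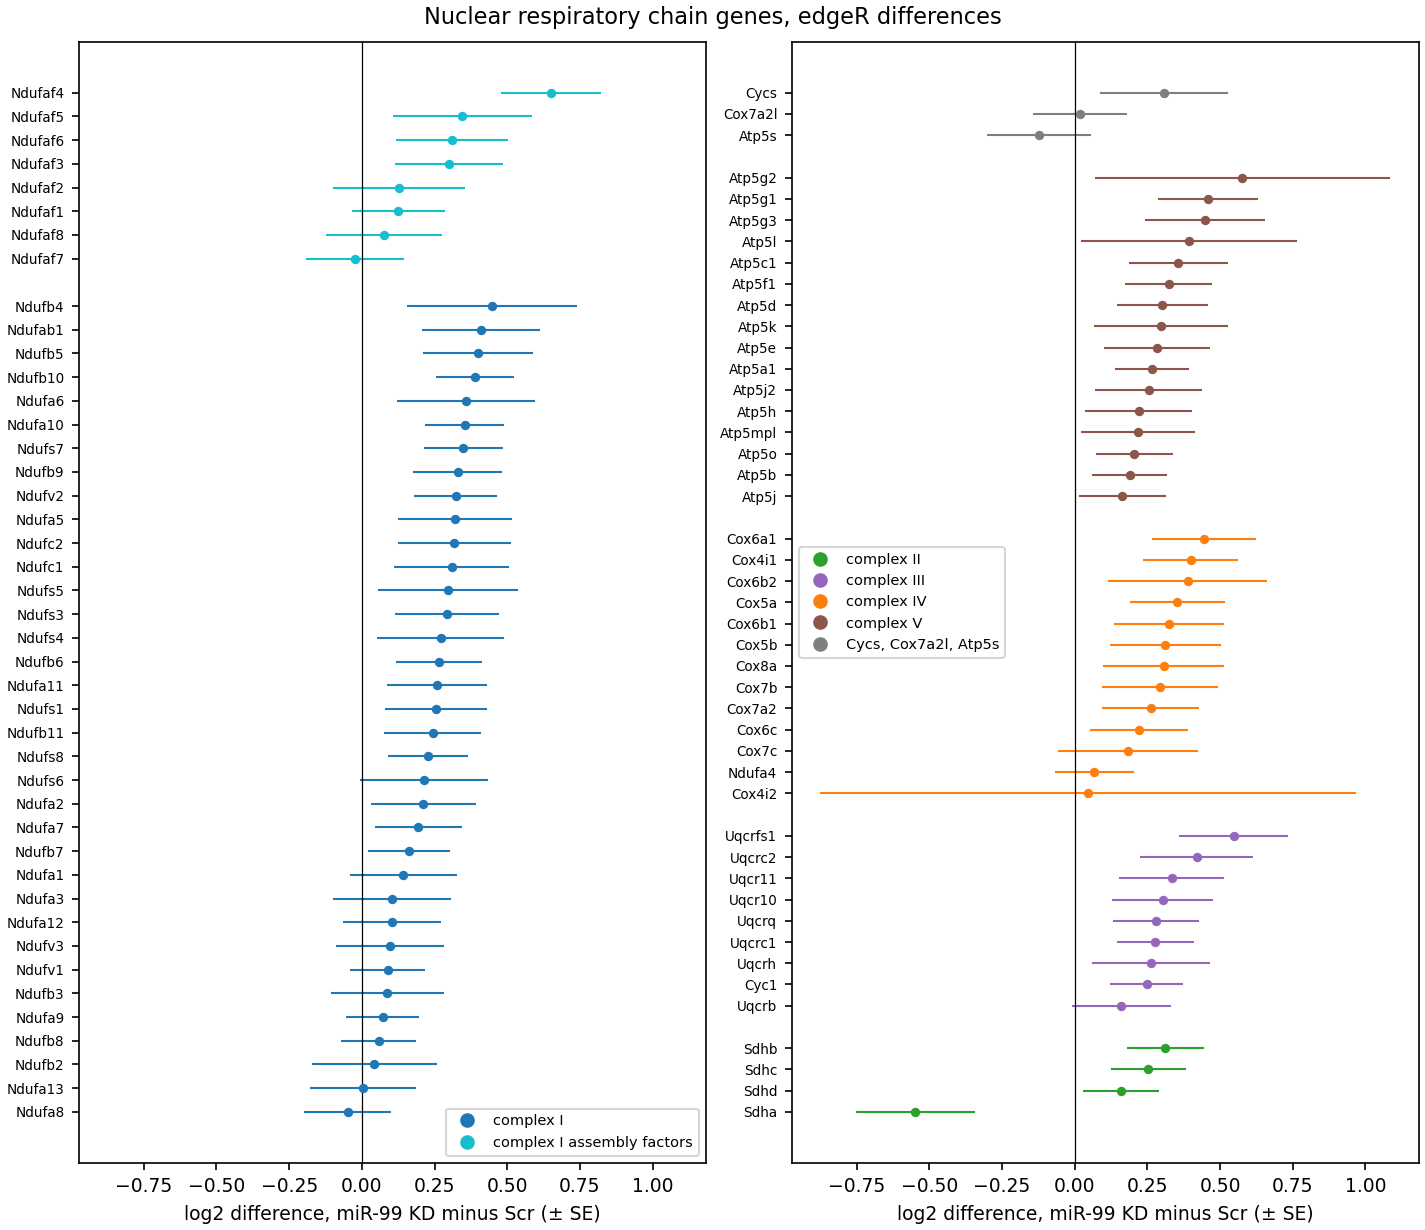
Log2 difference of the tested nuclear genes, except 1 that is not drawn, with its standard error, from edgeR, by complex, with positive values meaning higher in miR-99 KD. Nearly all points lie right of 0, between 0 and 0.65, and Sdha stands at -0.55.

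This one-sidedness also ran between the control libraries. Scr 1 was above Scr 2 in 67 of 78 nuclear subunit genes, beside 50.7% of all genes, and the median log2 difference between these 2 controls was 0.26, about as large as that between the groups. Scr 2 was the lowest library in 67 of 78, beside 25.8% of all genes, and miR-99 KD 2 the highest in 55 of 78, beside 32.5%. As deviations from each gene's mean over libraries, the medians were 0.00, -0.26, 0.08 and 0.20. Without Scr 2 the median difference between groups was 0.13, and 49 of 78 genes had both miR-99 KD libraries above the remaining Scr library, beside 30.7% of all genes in that setting.

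**Figure D3:**
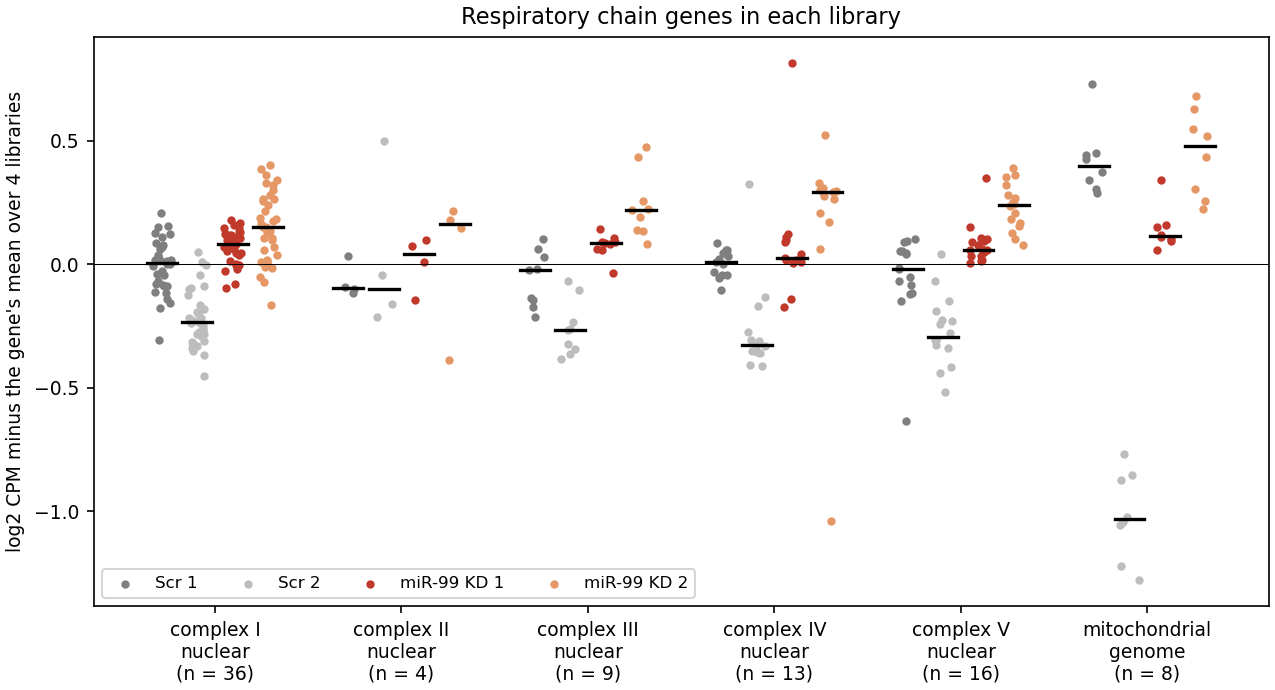
Log2 CPM of each gene minus its mean over the 4 libraries, by complex and library, with 1 point per gene and a bar at the median. The median of Scr 2 is lowest in every complex, though in complex II only barely (-0.101 against -0.096 in Scr 1). The 8 mitochondrial genome genes drop to a median of -1.03 in Scr 2.

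Complex I holds the NADH-oxidising arm and the membrane arm of the largest complex. Of its 36 nuclear subunit genes, 21 lay above without overlap and 15 overlapped. In comparison, 24.5% of all genes and 50.9% of protein-coding genes under 2 kb with a mean of 50 CPM or more lay above. The median difference was 0.25. With library totals 12 of 36 were above, beside 18.1% of all genes, and without Scr 2 the median was 0.10. Among the 7 nuclear core subunits, which carry the flavin and iron-sulphur centres and the quinone site, 6 lay above and 1, Ndufv1, overlapped. With library totals 2 of these 7 were above, beside 18.1% of all genes. Ndufs1, the 75 kDa iron-sulphur subunit, had 311, 309, 319 and 421 CPM, so that miR-99 KD 2 alone was clearly apart, at a difference of 0.26 ± 0.17 (SE). Ndufv1, which binds the flavin, had 225.9, 239.5, 255.8 and 239.3 CPM, a difference of 0.09 ± 0.13 with the groups overlapping slightly. Ndufs7, an iron-sulphur subunit near the quinone site, had 159, 146, 185 and 203 CPM, with no overlap and an edgeR adjusted p of 0.314.

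The 29 accessory subunits of complex I surround that core, and 15 lay above while 14 overlapped. In comparison, 24.5% of all genes and 50.9% of protein-coding genes under 2 kb with a mean of 50 CPM or more lay above. Ndufb10 had 123, 115, 148 and 163 CPM (0.39 ± 0.13) and Ndufa10 had 212, 206, 250 and 284 CPM (0.35 ± 0.14), and neither group pair overlapped. Ndufa8 was the only complex I subunit below 0, at 102, 106, 110 and 90.96 CPM and a difference of -0.05 ± 0.15, with the groups interleaved. Per kilobase of merged exons, the highest complex I levels averaged over libraries were those of Ndufb9 (171 CPM per kb), Ndufc2 (168) and Ndufa8 (119). Ndufb9 lay above without overlap and Ndufc2 overlapped.

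Complex I is put together by assembly factors that do not stay in it, and 8 of these fell under the rule. Ndufaf4 had 89.8, 88.1, 121 and 158 CPM, with both controls close together and both miR-99 KD libraries higher, a difference of 0.65 ± 0.17. Its edgeR adjusted p was 0.232, the lowest of the members, and its DESeq2 adjusted p was 0.0279. Of the other 7 factors, Ndufaf3, Ndufaf5 and Ndufaf6 also lay above and 4 overlapped, beside 24.5% of all genes above. Among those 4, Ndufaf7 was at -0.02 ± 0.17. The promoter of Ndufaf4 (GRCm38.p6, chr4:24897833-24898132, plus strand, 250 bases before to 50 after the start) is shown because DESeq2 called this member alone. DESeq2 called 1.68% of all genes higher, and the main edgeR test called 0 members. Capitals mark 2 overlapping matches, 1 on each strand, to the letters GCGCANGCG of NRF1, a transcription factor known for respiratory genes.
Ndufaf4: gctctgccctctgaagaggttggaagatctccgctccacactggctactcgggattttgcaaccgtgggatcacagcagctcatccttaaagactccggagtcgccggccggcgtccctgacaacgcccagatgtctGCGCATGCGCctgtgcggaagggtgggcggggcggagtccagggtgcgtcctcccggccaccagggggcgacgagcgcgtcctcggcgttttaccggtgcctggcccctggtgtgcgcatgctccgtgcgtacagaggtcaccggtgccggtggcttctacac

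Complex II, succinate dehydrogenase, also works in the tricarboxylic acid cycle, and its 4 genes did not move together. Sdha, the flavin-bearing subunit that oxidises succinate, had 324, 448, 286 and 242 CPM. Both miR-99 KD libraries were below both controls, and the 2 controls differed from each other by 0.47 on the log2 scale, with Scr 2 the higher. The difference was -0.55 ± 0.20, with an edgeR adjusted p of 0.307, and it was -0.31 without Scr 2 and -0.79 without Scr 1. Sdhb, the iron-sulphur subunit, had 278, 257, 319 and 346 CPM (0.31 ± 0.13). The membrane anchors lay on the same side as Sdhb, with Sdhc at 199, 190, 224 and 240 CPM (0.25 ± 0.13) and Sdhd at 354, 374, 387 and 426 CPM (0.16 ± 0.13). These 3 genes did not overlap between groups, and 24.5% of all genes lay above in the same way. None of the 50-base stretches of Sdha occurs in another annotated gene, and that share is at most 0.10% in the other 3 genes.

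The promoters of Sdha (chr13:74350191-74350490, minus strand), Sdhb (chr4:140961021-140961320, plus strand) and Sdhd (chr9:50603800-50604099, minus strand), from RefSeq on GRCm38.p6, are shown because these subunits of 1 complex lay on opposite sides. Capitals mark NRF1 letters in Sdha and the first match of Sdhd, and the letters CCGGAAG of GABP, another factor known for respiratory genes, in Sdhb and, on the other strand, in the last match of Sdhd.
Sdha: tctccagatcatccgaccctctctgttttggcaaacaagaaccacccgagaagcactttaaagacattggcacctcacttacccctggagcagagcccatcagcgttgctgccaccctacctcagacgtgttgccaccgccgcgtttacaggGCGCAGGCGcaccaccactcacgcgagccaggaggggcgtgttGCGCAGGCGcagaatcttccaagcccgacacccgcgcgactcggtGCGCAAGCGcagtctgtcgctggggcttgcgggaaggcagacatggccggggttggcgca
Sdhb: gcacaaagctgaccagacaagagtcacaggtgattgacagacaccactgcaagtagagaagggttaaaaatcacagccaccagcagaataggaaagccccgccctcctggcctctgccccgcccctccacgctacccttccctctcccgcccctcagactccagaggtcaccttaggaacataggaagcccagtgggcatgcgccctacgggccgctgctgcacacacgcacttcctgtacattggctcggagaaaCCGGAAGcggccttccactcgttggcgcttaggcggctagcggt
Sdhd: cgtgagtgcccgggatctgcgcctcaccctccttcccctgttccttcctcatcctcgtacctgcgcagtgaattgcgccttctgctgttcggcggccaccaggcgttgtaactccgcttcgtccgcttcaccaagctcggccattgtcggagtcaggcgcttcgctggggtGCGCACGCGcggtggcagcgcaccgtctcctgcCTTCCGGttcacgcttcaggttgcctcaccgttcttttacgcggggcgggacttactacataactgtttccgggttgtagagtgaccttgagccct
The Sdha window holds 3 NRF1 matches, 98, 55 and 10 bases before the start. The Sdhb window holds 1 GABP match just after the start, and the Sdhd window 1 match of each kind. Sdhc has no entry in the promoter table.

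Complex III had 8 of 9 nuclear subunit genes above without overlap. In comparison, 24.5% of all genes and 50.9% of protein-coding genes under 2 kb with a mean of 50 CPM or more lay above. With library totals 6 of 9 were above, beside 18.1% of all genes. The median difference was 0.28, or 0.17 without Scr 2. Uqcrfs1, the Rieske iron-sulphur protein, had 234, 205, 275 and 366 CPM, with miR-99 KD 2 the highest, a difference of 0.55 ± 0.19 and an edgeR adjusted p of 0.289. Cyc1, the cytochrome c1 subunit, had 289, 297, 344 and 352 CPM, with both groups tight and a difference of 0.25 ± 0.12. The core proteins Uqcrc1 (672, 742, 860 and 854 CPM, 0.28 ± 0.13) and Uqcrc2 (282, 257, 302 and 418 CPM, 0.42 ± 0.19) lay on the same side. Only Uqcrh overlapped among the 9. Cytochrome c itself, Cycs, had 13.6, 11.8, 15.8 and 15.6 CPM (0.31 ± 0.22), and 28.5% of its 50-base stretches occur in other annotated genes, so its level is uncertain.

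Of the 5 complexes, complex IV had the widest median gap between the control libraries among nuclear genes. Of 13 nuclear genes tested, 6 lay above and 7 overlapped. In comparison, 24.5% of all genes and 50.9% of protein-coding genes under 2 kb with a mean of 50 CPM or more lay above. The median difference was 0.31, while the median of Scr 1 over Scr 2 was 0.32. With library totals 3 of 13 were above, beside 18.1% of all genes, and without Scr 2 the median was 0.13. Cox4i1, the ubiquitous form of subunit 4, had 361, 295, 405 and 460 CPM (0.40 ± 0.16). Cox6a1 had 210, 163, 236 and 272 CPM (0.44 ± 0.18). Cox5a (161, 131, 175 and 198 CPM, 0.35 ± 0.16) and Cox5b (69.1, 54.8, 69.5 and 84.3 CPM, 0.31 ± 0.19) lay above without overlap, Cox5b by a margin of under 1 CPM. Cox8a had 153, 109, 149 and 175 CPM and overlapped, with Scr 2 the lowest. Ndufa4, a complex IV subunit despite its name, was close to level at 219, 192, 211 and 219 CPM.

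The isoforms found were mostly the common, non-muscle ones. Cox4i2, the lung and low-oxygen form, stayed at 0.26 to 1.14 CPM in every library, and the heart and muscle forms Cox6a2 and Cox7a1 had at most 8 counts in any library and were not tested. Ckmt2, Myh6 and Actc1, genes of muscle, had 0 CPM except for 0.179 CPM of Ckmt2 in Scr 1. Cox6b2, known from testis, was an exception at 49.4, 41.1, 45.2 and 73.4 CPM beside 165, 127, 166 and 201 CPM for Cox6b1, and 0.00% of its 50-base stretches are shared. Cox7a2 had 97.2, 76.7, 101 and 107 CPM, and the related supercomplex factor Cox7a2l was level at 61.8, 59.2, 56.1 and 66.4 CPM.

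Complex V had 13 of 16 genes above without overlap, and a median difference of 0.29. In comparison, 24.5% of all genes and 50.9% of protein-coding genes under 2 kb with a mean of 50 CPM or more lay above. With library totals 6 of 16 were above, beside 18.1% of all genes, and without Scr 2 the median was 0.15. All 5 genes of the catalytic F1 head lay above in the main analysis, and 2 of the 5 with library totals. Atp5a1, the alpha subunit, had 1627, 1592, 1864 and 2005 CPM (0.27 ± 0.13), and Atp5b, the beta subunit, had 1921, 1990, 2136 and 2322 CPM (0.19 ± 0.13). Atp5c1, the gamma subunit that turns inside the head, had 402, 337, 426 and 520 CPM (0.36 ± 0.17). Atp5s, named for the synthase but counted outside the subunits, had 34.3, 34.2, 28.9 and 34.1 CPM (-0.12 ± 0.18), below without overlap by a narrow margin.

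The membrane ring of subunit c is encoded by 3 genes for the same mature protein, and all 3 lay above. With library totals 2 of the 3 were above, beside 18.1% of all genes. Atp5g3 had 395, 294, 417 and 524 CPM (0.45 ± 0.21). Atp5g1 had 51.9, 46.5, 61.4 and 73.9 CPM (0.46 ± 0.17), with an edgeR adjusted p of 0.307. Atp5g2 had only 1.13, 1.85, 2.31 and 2.14 CPM, and 87.4% of its 50-base stretches occur elsewhere in annotated genes, so its level is uncertain. The other nuclear subunits with over 35% of shared stretches ranged widely in level, and their levels are likewise uncertain. Atp5l (68.5%, 3.36 to 6.21 CPM), Cox7c (53.0%, 17.2 to 24.0 CPM) and Ndufb4 (37.0%, 5.145 to 7.97 CPM) were low. Atp5h (47.9%, 47.5 to 66.7 CPM), Uqcrb (43.2%, 46.4 to 57.9 CPM) and Ndufs3 (35.8%, 50.1 to 71.8 CPM) were well counted. The 60 tested subunit genes with under 10% of shared stretches had a median difference of 0.26 with 39 above. The 10 genes with 25% or more had 0.29 with 6 above. Of all genes, 24.5% lay above.

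Levels of genes and complexes were compared per length. The median over subunit genes of CPM per kilobase of merged exons was 47.9 for complex I, 106 for complex II, 123 for complex III, 79.0 for complex IV and 55.0 for complex V. On the longest transcript the same medians were 74.6, 178, 166, 91.3 and 103, so the order of complexes depends on the length used, and complex I was lowest on both. Within complex V the levels ran from 0.768 for Atp5l to 565 for Atp5a1, and the leading genes after Atp5a1 were Atp5b (494) and Atp5c1 (221). The low end is uncertain, since 68.5% of the 50-base stretches of Atp5l are shared. On the longest transcript Atp5b led with 1092 before Atp5a1 with 663, so the order of genes depends on the length too. Leading genes elsewhere were Sdhd (313) in complex II, Uqcrfs1 (198), Uqcr10 (190) and Uqcrc1 (189) in complex III, and Cox6a1 (314), Cox4i1 (245) and Cox8a (236) in complex IV, all in CPM per kilobase of merged exons. As a share of nuclear subunit counts compared between libraries, complex II took 7.52% to 9.80% with its peak in Scr 2, the library highest in Sdha.

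The mitochondrial genome genes varied more within the control group than between groups. All 8 were lowest in Scr 2, where 25.8% of all genes were lowest, and in all 8 the groups overlapped. mt-Co1, the catalytic subunit of complex IV, had 2704, 852, 2124 and 3189 CPM (0.58 ± 0.55). mt-Cytb, the only mitochondrially encoded subunit of complex III, had 2348, 967, 1894 and 2160 CPM (0.29 ± 0.41). mt-Nd1, at the quinone site of complex I, had 1225, 525, 932 and 1069 CPM (0.19 ± 0.40). In each, 1 control was low and the other was near or above the miR-99 KD libraries.

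The remaining complex I subunits of this genome form its proton-pumping membrane arm, apart from mt-Nd6 and mt-Nd3, which lie near its base. mt-Nd5 had 587, 236, 515 and 743 CPM, mt-Nd4 312, 116, 269 and 345 CPM, and mt-Nd2 214, 82.1, 188 and 247 CPM. mt-Nd6, the only protein gene on the other strand, had 79.4, 35.0, 81.4 and 74.9 CPM, and mt-Nd3 had 3.52, 0.823, 2.27 and 2.86 CPM. The 8 genes had a median difference of 0.49 between groups, against a median of 1.35 between Scr 1 and Scr 2. Without Scr 2 the median between groups was -0.043, and without Scr 1 it was 1.38. No adjusted p by edgeR was below 0.541.

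Set against each other in every library, nuclear members took 1.48%, 1.37%, 1.51% and 1.67% of gene counts, and mitochondrial genome members 0.774%, 0.289%, 0.581% and 0.762%. The mitochondrial share of respiratory chain counts was 34.4%, 17.4%, 27.8% and 31.3%, so that the miR-99 KD libraries fell between the 2 controls. Nuclear counts were 1.91, 4.74, 2.59 and 2.19 times the mitochondrial ones. The 2 mitochondrial ribosomal RNAs were likewise lowest in Scr 2 and next in miR-99 KD 1, with 0.216%, 0.0687%, 0.148% and 0.237% of gene counts. These shares rest on 8 of the 13 mitochondrial protein genes, since 5 had 0 or 1 count.

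**Figure D4:**
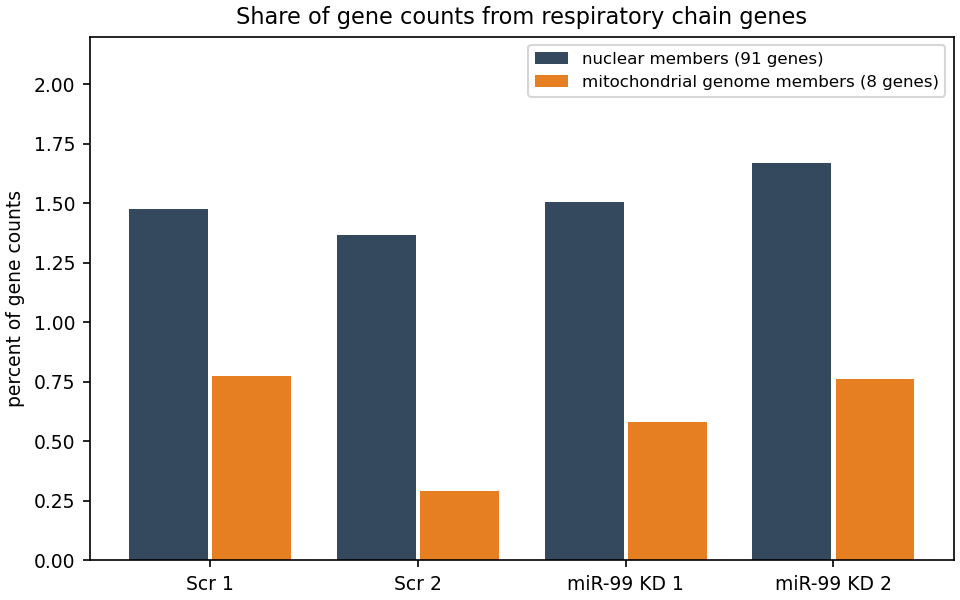
Percent of gene counts from the 91 nuclear and 8 mitochondrial genome members in each library, as bars from 0. The nuclear share stays between 1.37% and 1.67%, while the mitochondrial share drops to 0.289% in Scr 2 and is 0.581% to 0.774% elsewhere.

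Most subunits are small proteins with short, abundant mRNAs, and gene length and level moved with the comparison across all genes. Protein-coding genes whose longest transcript was under 1 kb had a median difference of 0.23, with 37.2% above and 12.3% below. The median was 0.12 at 1 to 2 kb, 0.02 at 2 to 4 kb and -0.06 from 4 kb. For the same short genes the median log2 difference of Scr 1 over Scr 2 was 0.28. By mean level, 33.0% of protein-coding genes at 50 to 200 CPM lay above, and 44.5% at 200 CPM or more. The 955 protein-coding genes under 2 kb with a mean of 50 CPM or more had a median of 0.22, with 50.9% above and 10.5% below, beside 65.4% above and 1.28% below in the nuclear subunits. Of the 78 nuclear subunits, 48 are among these 955 genes. The nuclear subunits had medians of 0.27, 0.28, 0.26 and 0.28 in the 4 length classes, the last holding only 4 genes. Their part in the group difference was not tested beyond these values.

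**Figure D5:**
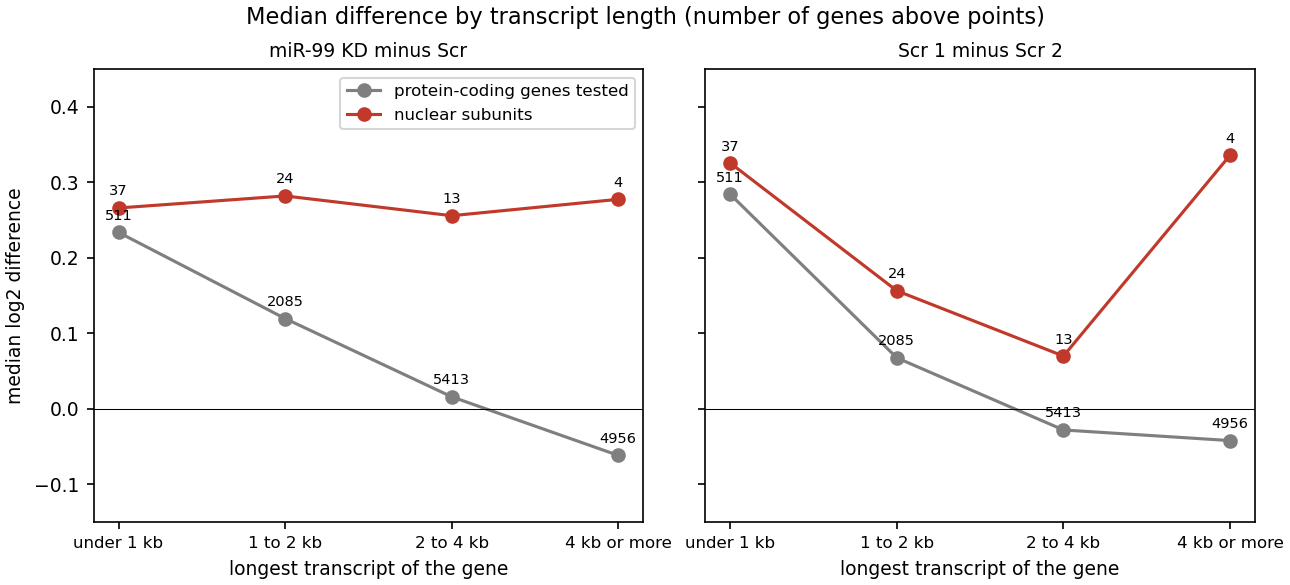
Median log2 difference by length of a gene's longest transcript, for all protein-coding genes tested and for nuclear subunit genes, between the groups (left) and between the 2 control libraries (right), with the number of genes above each point. Between groups the grey line falls from 0.23 to -0.06 while the red line stays at 0.26 to 0.28.

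Genes that serve the chain from outside the rule were taken from lists. The shares of all genes given beside these lists do not allow for gene length or level. By edgeR 0 genes of these 7 lists passed in either direction, beside 0.0% of all genes higher and 0.0% lower. Of 39 other assembly factors tested, 18 lay above, 2 below and 19 overlapped, beside 24.5% of all genes above and 26.0% below. Their median difference was 0.17. Sdhaf2, which attaches the flavin to Sdha, had 73.7, 59.8, 85.7 and 111 CPM (0.56 ± 0.20), on the side opposite to Sdha. Cox17, a copper carrier for complex IV, had 32.4, 32.2, 44.2 and 52.0 CPM (0.58 ± 0.17), and Sco1, which takes copper from it, had 28.0, 29.7, 35.0 and 38.4 CPM (0.35 ± 0.17). Tmem70, needed for complex V, had 104, 115, 146 and 156 CPM (0.46 ± 0.13). These 4 genes did not overlap between groups.

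Genes for upkeep and expression of mitochondrial DNA had 20 above, 4 below and 11 overlapping of 35, with a median of 0.27. Of all genes, 24.5% lay above and 26.0% below. The translation factors Gfm1 (122, 127, 154 and 172 CPM, 0.39 ± 0.13) and Gfm2 (59.3, 60.1, 84.5 and 77.04 CPM, 0.44 ± 0.14) lay above, as did Mtrf1l, a release factor (0.73 ± 0.22), and Fastkd5, an RNA processing factor (0.53 ± 0.17). The controls of these 4 genes were close to each other, unlike those of the mitochondrial genome genes. They were named for the smallest p of the list, which favours close replicates. Wider controls occurred in the list too, as in Oxa1l (68.3 and 51.1 CPM in Scr 1 and Scr 2) and Twnk (50.2 and 65.7 CPM). Tfam, which packs mitochondrial DNA, and the RNA polymerase Polrmt differed by 0.15 ± 0.14 and 0.20 ± 0.15.

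Of 17 nuclear regulators of respiration, 5 lay above, 4 below and 8 overlapped, shares near those of all genes (24.5% above and 26.0% below), and the median was 0.05. Sirt3, a mitochondrial deacetylase, had 69.7, 104, 33.6 and 30.9 CPM, both miR-99 KD libraries lying at under 34 CPM. Its difference was -1.43 ± 0.24, with an edgeR adjusted p of 0.197 and a DESeq2 adjusted p of 2.07e-05. Nfe2l2, the regulator of the antioxidant response, had 194, 207, 305 and 325 CPM (0.65 ± 0.13), at adjusted p of 0.213 by edgeR and 0.000753 by DESeq2. Gabpb1, the partner of the GABP DNA-binding subunit, had 142, 150, 111 and 85.6 CPM (-0.57 ± 0.17), while the DNA-binding subunit Gabpa was at 148, 152, 155 and 188 CPM. Yy1 had 26.2, 31.2, 37.7 and 49.3 CPM (0.60 ± 0.21), and Nrf1 overlapped at 99.6, 120, 118 and 109 CPM.

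Coenzyme Q synthesis genes had 7 above and 2 below of 13, beside 24.5% of all genes above and 26.0% below. Their median difference was 0.14. Coq8a, an atypical kinase of that pathway, had 63.5, 62.2, 28.1 and 27.6 CPM, with close replicates on both sides. Its difference was -1.17 ± 0.15, with an edgeR adjusted p of 0.191 and a DESeq2 adjusted p of 1.87e-07. Coq3 (0.31 ± 0.16), Coq4 (0.40 ± 0.18) and Coq10b (0.37 ± 0.18) lay above.

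The carriers of ADP, phosphate and protons had a median of 0.31. Of 10 tested, 7 lay above and 1 below, beside 24.5% of all genes above and 26.0% below. The one below was Slc25a4, the muscle-type ADP/ATP carrier, at 137, 130, 107 and 96.7 CPM (-0.39 ± 0.13). Ucp2 (847, 682, 1168 and 940 CPM, 0.46 ± 0.19) and Vdac2 (0.43 ± 0.16) lay above. The ATP synthase inhibitor Atpif1 (0.40 ± 0.17) also lay above, but it was named outside the list, after its values were seen.

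The 20 genes of the tricarboxylic acid cycle and pyruvate dehydrogenase had a median of 0.16. Of these, 8 lay above, 1 below and 11 overlapped, beside 24.5% of all genes above and 26.0% below. The one below was Idh2, mitochondrial isocitrate dehydrogenase, at 307, 368, 269 and 234 CPM (-0.42 ± 0.16), so that, like Sdha, it was highest in Scr 2. Citrate synthase, Cs (396, 371, 482 and 527 CPM, 0.40 ± 0.13), fumarase, Fh1 (0.46 ± 0.15), and malate dehydrogenase, Mdh2 (0.39 ± 0.13), lay above. Of the 20 genes, 17 had a positive difference and 3 a negative one, so most stood on the other side from Sdha.

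Import and inner membrane genes had 13 above, 0 below and 9 overlapping of 22, beside 24.5% of all genes above and 26.0% below. Their median difference was 0.19. Tomm22, a receptor of the outer membrane translocase, had 138, 119, 173 and 188 CPM (0.49 ± 0.14), with adjusted p of 0.250 by edgeR and 0.0516 by DESeq2. Hspe1, the mitochondrial co-chaperonin, had 60.5, 61.5, 80.3 and 130 CPM (0.79 ± 0.25), with miR-99 KD 2 well above the rest. Phb2 (0.30 ± 0.13) and the protease Yme1l1 (0.33 ± 0.14) also lay above.

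Promoter letters were read for the 73 of 91 nuclear members that had an entry in the RefSeq table (GRCm38.p6, 250 bases before to 50 after the start, both strands). NRF1 letters (GCGCANGCG) stood in 31.5% of members, against 14.9% of 10216 protein-coding genes tested and 7.03% of all 27025 genes of the table. GABP letters (CCGGAAG) stood in 24.7%, against 19.6% and 9.93%, and YY1 letters (AANATGGCG) in 15.1%, against 5.87% and 2.76%. At least 1 of the 3 stood in 43 members, or 58.9%, against 34.6% and 17.2%. By complex, that share was 11 of 13 genes in complex V, 18 of 32 in complex I, 3 of 5 in complex III, 3 of 3 in complex II and 3 of 11 in complex IV. NRF1 letters can match both strands at overlapping positions, as in Ndufaf4, and such a gene counts once. These are matches of letters, and no binding was measured.

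Some members overlap a neighbour on the opposite strand, and whether counting used strand is not given in the sources used here. Exons of Atp5j share 397 bases with Gabpa, those of Ndufb5 share 616 with Mrpl47, those of Atp5f1 share 337 with Wdr77, those of Cox6c share 250 with Vps13b and those of Cox4i1 share 154 with Emc8. Reads from such stretches cannot be told apart by gene without strand.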

How the data were processed

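Total RNA of sorted cells was amplified with SMARTer, per the labels' protocols. The deposited values are whole-number read counts per Ensembl gene, which the authors did not normalize or pool. The submitters' processing notes name STAR, Picard, HTSeq, DESeq2 and mm9, and the sources used here give no version, strand setting or annotation release. Rows naming no gene were left out of library sizes. Reads aligned to several places made up 18.0% to 21.9% of reads, and reads in no feature 8.31% to 13.8%.

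Of the rows, 44585 matched a symbol in GENCODE M21, which also gave lengths and exon sequence. Counts were fitted with edgeR 4.0.16 in R 4.3.3 (filterByExpr, TMM, quasi-likelihood test, Benjamini-Hochberg at 0.05, no block), and CPM uses TMM-scaled sizes. Log2 deviations use a prior count of 2. DESeq2 1.42.0, limma-voom (limma 3.58.1), other scalings, filters and left-out libraries were alternatives. The members, lists and naming rule (core and isoform genes, the highest per length, the smallest p) were chosen with earlier results of these data known. The values of 1 gene that the naming rule takes are not reported here. Replicate numbers were not taken to pair mice. The labels give 2 mice per group, and amplified reads without molecular identifiers are not independent molecules, so limits cover counting error only.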

Additional observations from a re-analysis of the deposited data

How the results depend on the processing

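Members called higher by edgeR numbered 0 in the main analysis and 0 to 2 with each library left out, the 2 being Ndufaf4 and Uqcrfs1 without miR-99 KD 1, where 1.83% of all genes were called higher. The number was 1 with DESeq2 and 1 without a filter on low counts, Ndufaf4 in both, beside 1.68% and 1.18% of all genes. No setting called a member lower. Nuclear subunit genes with both miR-99 KD libraries above both Scr libraries numbered 29 of 78 with library totals, beside 18.1% of all genes, and 49 to 73 with each library left out, beside 30.7% to 39.7%. With a library left out, the median difference ranged from 0.13 to 0.37 for nuclear subunits, the low end without Scr 2, from 0.10 to 0.34 for complex I, 0.15 to 0.26 for complex II, 0.17 to 0.46 for complex III, 0.13 to 0.48 for complex IV, 0.15 to 0.39 for complex V and -0.043 to 1.38 for mitochondrial genome genes. The complex II median was 0.12 with library totals. Fits that left 1 library in a group assume that it varies like the other group.

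The mitochondrial share of respiratory chain counts with counts per exon length was 44.6% and 25.9% for Scr against 37.5% and 40.8% for miR-99 KD. A second version kept only the 5 mitochondrial genes with under 10% of stretches shared, but all 91 nuclear members. This choice lowers the share by itself. The share was then 23.8% and 12.2% for Scr against 18.8% and 20.02% for miR-99 KD. In both versions the miR-99 KD libraries lay between the controls. Levels per kilobase for complexes I to V were 74.6, 178, 166, 91.3 and 103 on the longest transcript, and 98.5, 187, 166, 145 and 178 on the principal transcript, an alternative chosen after seeing the data. With the replicate number as a block, 0 members were called. The block does not enter CPM, so the 51 subunits above, beside 24.5% of all genes, could not change. The medians with the block were 0.28 for nuclear subunits and 0.62 for mitochondrial genome genes. Over the genes tested, the log2 deviations of Scr 1 and of miR-99 KD 1 from their group means correlated at 0.057. The block by replicate number changed no call. Depth limits Cox4i2, Cox6a2 and Cox7a1, which had few counts. Atp5g2 also had few counts, but 87.4% of its 50-base stretches are shared, so depth is not its only limit.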
